A study of Mus musculus with 8 samples.

Results

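The events described here are 350 pairs of exons in 350 mouse genes, which were all rows of type mutually exclusive exons in the splicing table that the authors deposited for germinal center-like B cells (iGBs) with and without Prmt5. They were 350 of 1918 deposited splicing events, beside 913 skipped exons and smaller numbers of retained introns and alternative splice sites. For each gene and type of event the authors kept the row with the smallest p-value and a difference between the genotypes above a minimum size. The pairs were thus chosen by their inclusion levels in these same 8 libraries, and the levels are given as a description without a test.

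iGBs were splenic B cells of C57BL6/J mice grown on 40LB feeder cells, fibroblasts that express CD40L and BAFF, with 1 ng/mL IL-4. RNA-seq was done at day 4 on 4 libraries of Prmt5 FF Cγ1-cre cells, called Prmt5-null, and 4 libraries of Cγ1-cre cells without the floxed alleles, called control. Both groups thus carried Cγ1-cre, which acts after B cells are activated. Feeder cells were removed by elutriation before ribosomal RNA depletion, and the age of the mice was not given in the labels used here. The design of the series names 2 experiments with 2 libraries of each genotype in each, but no label ties a library to an experiment, so values within an experiment are not given.

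The libraries held from 36731721 to 50366174 reads on genes. Of the B cell markers, Cd79b was at 26900 to 30600 normalized counts in control and at 27500 to 35100 in Prmt5-null libraries, Ms4a1 at 42600 to 49400 and 35200 to 53900, and Pax5 at 5020 to 5990 and 5370 to 7130. Cd79a, at 12200 to 14300 and 6940 to 8810, was called lower in Prmt5-null iGBs. Summed fibroblast markers (Col1a1, Col1a2, Col3a1, Fn1, Sparc, Dcn) were at 3340 to 5960 and 5340 to 9380 normalized counts, and 3 of the 6 were called higher in Prmt5-null iGBs. Summed myeloid markers were at most 119 and summed T cell markers at most 11.8 normalized counts in a library, with Cd3e at 0 in all 8.

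Prmt5 places symmetric dimethyl marks on arginines of proteins, among them the Sm proteins of the spliceosome. Mutually exclusive exons are neighboring exons of which a transcript keeps 1 and leaves out the other, as in tropomyosin genes, so that a protein segment is exchanged for another version. Many such pairs arose by exon duplication and have equal lengths. An exchange leaves the reading frame intact when the lengths differ by a multiple of 3. rMATS, the program that made the table, was given an exon annotation and counted the reads of each exon of a pair. The 2 exons of a pair need not exclude each other in every transcript.

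The exons of some pairs are shown first, from the GENCODE transcript sequences of the GRCm38 build. In pairs of the same length, capitals mark the bases that are identical at the same position of the partner exon. Tropomyosin genes Tpm1 and Tpm3, whose products wrap actin filaments, each exchange exons of 76 bases.
Tpm1 upstream exon, chr9:67032466-67032541, minus strand: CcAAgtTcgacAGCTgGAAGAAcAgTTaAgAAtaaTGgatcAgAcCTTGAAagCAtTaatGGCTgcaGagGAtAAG
Tpm1 downstream exon, chr9:67031951-67032026, minus strand: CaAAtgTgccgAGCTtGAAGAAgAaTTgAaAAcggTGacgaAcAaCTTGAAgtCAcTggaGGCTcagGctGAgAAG
Tpm3 upstream exon, chr3:90088401-90088476, plus strand: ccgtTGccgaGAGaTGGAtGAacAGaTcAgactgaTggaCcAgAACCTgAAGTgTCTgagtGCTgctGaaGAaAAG
Tpm3 downstream exon, chr3:90089048-90089123, plus strand: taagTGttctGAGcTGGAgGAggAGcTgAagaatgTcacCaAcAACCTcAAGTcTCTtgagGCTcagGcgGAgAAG
The Tpm1 exons were identical at 43 of 76 positions (56.6%) and the Tpm3 exons at 39 of 76 (51.3%). Between the genes, the upstream exons of Tpm1 and Tpm3 were identical at 50 of 76 positions (65.8%) and the downstream exons at 57 of 76 (75%). Each exon therefore resembled the exon in the same place of the other gene more than its own partner.

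P4ha1 encodes a subunit of the prolyl hydroxylase that modifies collagen, and Calu encodes a calcium-binding protein of the secretory pathway.
P4ha1 upstream exon, chr10:59354340-59354410, plus strand: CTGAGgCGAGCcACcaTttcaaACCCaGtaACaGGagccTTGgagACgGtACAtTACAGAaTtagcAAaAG
P4ha1 downstream exon, chr10:59355350-59355420, plus strand: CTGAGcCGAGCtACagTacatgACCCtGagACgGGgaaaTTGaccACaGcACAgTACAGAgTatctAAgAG
Calu upstream exon, chr6:29361294-29361487, plus strand: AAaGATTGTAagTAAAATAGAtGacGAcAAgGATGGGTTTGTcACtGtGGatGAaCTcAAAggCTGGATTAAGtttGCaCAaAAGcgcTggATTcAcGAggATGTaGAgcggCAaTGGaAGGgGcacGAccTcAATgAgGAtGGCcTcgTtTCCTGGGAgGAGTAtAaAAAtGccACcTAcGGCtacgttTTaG
Calu downstream exon, chr6:29361560-29361753, plus strand: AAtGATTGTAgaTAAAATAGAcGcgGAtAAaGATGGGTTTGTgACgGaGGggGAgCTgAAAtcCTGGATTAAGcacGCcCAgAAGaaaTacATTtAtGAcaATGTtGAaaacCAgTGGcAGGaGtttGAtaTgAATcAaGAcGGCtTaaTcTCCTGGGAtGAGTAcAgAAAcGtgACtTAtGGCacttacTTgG
The P4ha1 exons shared 42 of 71 positions (59.2%) and the Calu exons 127 of 194 (65.5%). Galnt7, a transferase of O-glycosylation, had 126 of 183 (68.9%) and Flot2, a membrane scaffold protein, 60 of 91 (65.9%). Equal length alone did not go with likeness, since Hnrnpa1 had 26 of 93 positions in common (28.0%) and Nlrc5 18 of 69 (26.1%). Counting Tpm1 and Tpm3, these were the 8 pairs of equal length among 350 (2.29%).

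Pairs of unequal length are shown with the last 3 bases, next to the 5′ splice site, in capitals. Ogdh, a subunit of the oxoglutarate dehydrogenase of the citric acid cycle, has a pair that no annotated transcript joins. The pair of Prmt5 itself is shown because the share of its upstream exon fell from 0.471 in control to 0.092 in Prmt5-null iGBs. Prmt5 carries the floxed alleles in Prmt5-null cells, and whether this exon lies in the part that Cre removes was not tested.
Ogdh upstream exon, chr11:6316765-6316855, plus strand: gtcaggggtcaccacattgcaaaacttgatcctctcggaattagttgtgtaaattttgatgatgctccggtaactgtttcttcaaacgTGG
Ogdh downstream exon, chr11:6316978-6317080, plus strand: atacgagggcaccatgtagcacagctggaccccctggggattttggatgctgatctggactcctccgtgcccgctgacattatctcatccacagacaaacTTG
Prmt5 upstream exon, chr14:54513291-54513454, minus strand: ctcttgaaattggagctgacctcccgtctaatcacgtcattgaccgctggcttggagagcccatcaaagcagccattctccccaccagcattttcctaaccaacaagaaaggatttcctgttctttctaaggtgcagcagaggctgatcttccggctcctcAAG
Prmt5 downstream exon, chr14:54511993-54512154, minus strand: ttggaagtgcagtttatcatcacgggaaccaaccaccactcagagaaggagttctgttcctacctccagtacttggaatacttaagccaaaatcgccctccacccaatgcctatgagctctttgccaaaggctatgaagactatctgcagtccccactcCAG
All 12 exons shown were coding over their whole length in the annotation. The exons of the Calu pair, and those of the Prmt5 pair, were also annotated together in a transcript. The lengths of the Ogdh exons (91 and 103 bases) differed by a multiple of 3, whereas those of Prmt5 (164 and 162 bases) did not.

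Most of the 350 pairs were not alternatives in the annotation. In 331 pairs (94.6%, 95% Wilson interval 91.7 to 96.5) at least 1 GENCODE transcript held both exons, and in 301 pairs (86.0%) the exons were directly next to each other in a transcript. In 97 pairs (27.7%) no transcript had either exon without the other. Transcripts with each exon alone were annotated for 84 pairs (24.0%). Only 19 pairs (5.43%, interval 3.50 to 8.32) were never found together: those of Agpat1, Athl1, C330007P06Rik, Creb1, Dlg1, Dock9, Galnt7, Ggta1, Mef2a, Mff, Mllt10, Ogdh, P4ha1, Rapgef1, Srrd, Tmem234, Tpm1, Tpm3 and Tpra1. These intervals, and the others below, cover counting error only.

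The upstream exons, those that come first in the transcript, had a median of 120 bases (from 22 to 5121, the latter in Tacc2) and the downstream exons a median of 112 bases (from 22 to 1249). The 2 exons differed in length by a median of 47.5 bases. They lay a median of 1960 bases apart, with quartiles of 532 and 6710 bases. Among the 19 pairs never annotated together the median distance was 571 bases, and among the other 331 it was 2020 bases.

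Lengths differed by a multiple of 3 in 129 of 350 pairs (36.9%, interval 32.0 to 42.0). The share was 12 of 19 (63.2%, interval 41.0 to 80.9) for pairs never annotated together and 117 of 331 (35.3%, interval 30.4 to 40.6) for the others, a difference that was not tested. The 275 pairs with both exons coding over their whole length had 110 such pairs (40.0%, interval 34.4 to 45.9). Both lengths were multiples of 3 in 70 pairs (20%), and in 59 (16.9%) neither was but the difference was. Of the 913 skipped exons in the series, 382 (41.8%, interval 38.7 to 45.1) had a length that is a multiple of 3, as had 146 upstream (41.7%) and 140 downstream exons (40.0%) of the pairs.

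**Figure D1:**
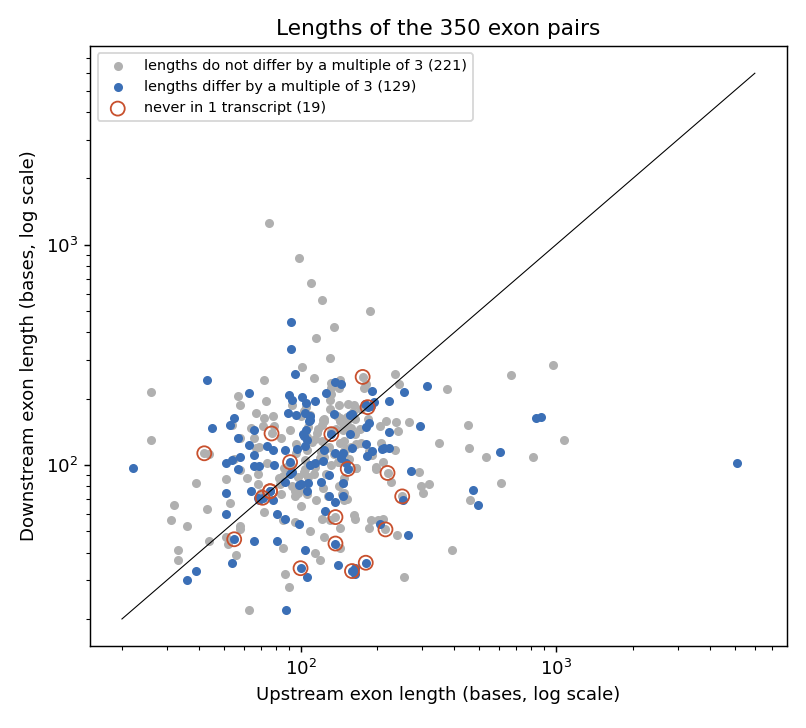
Length of the upstream exon (x axis, bases, log scale) against the downstream exon (y axis, bases, log scale) of the 350 pairs, with the line of equal length. Blue points are the 129 pairs whose lengths differ by a multiple of 3, and rings mark the 19 pairs that no annotated transcript holds together, 12 of which are blue.

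The inclusion level of a pair, as the authors deposited it, is the share of the upstream exon among the 2 exons, per base of the form that can receive reads, from 0 to 1. It was computed by them from reads that cross exon junctions plus reads on the exons (used here unless stated) or from junction reads alone. Each event had from 20 to 52209 reads over the 8 libraries (median 611), the most in Ivns1abp. In the library with the fewest reads, 253 events (72.3%) still had at least 20 reads, 96 (27.4%) at least 100, and 60 (17.1%) had under 10. The lists of 4 levels per genotype do not name their libraries, and the levels are therefore printed as the authors' values without an SD.

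In control iGBs the level had a median of 0.495 with quartiles of 0.329 and 0.694, and 110 pairs (31.4%) lay from 0.4 to 0.6. Only 46 (13.1%) lay below 0.1 or above 0.9. The 97 pairs that no transcript splits had a median control level of 0.508, and the 19 pairs never annotated together a median of 0.675. A level near the middle is thus what the table gives also for exons that the annotation always joins.

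The same exon was often measured in both ways, in a pair and as the skipped exon of its gene. This held for 71 of the 350 pairs (20.3%), 30 through the upstream and 41 through the downstream exon. In control iGBs 28 of these 71 exons were included at 0.9 or more as skipped exons, and 15 of the 28 (53.6%, interval 35.8 to 70.5) made up less than 0.7 of their pair.

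Prmt5 was such a case. Its upstream exon was included at 0.996 in control and 0.196 in Prmt5-null iGBs when measured as a skipped exon, yet it held 0.471 and 0.092 of its pair. A pair level near the middle here went with near-complete inclusion of the exon. Gatad2a, a subunit of the NuRD complex, had a downstream exon included at 0.921 in control and 0.639 in Prmt5-null iGBs, and holding 0.369 and 0.266 of its pair. Usp15, a deubiquitinase, had 0.912 and 0.650 as a skipped exon against 0.244 and 0.132 in the pair.

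In other genes both measures were close. The downstream exon of Mdm4 was included at 0.261 in control and 0.108 in Prmt5-null iGBs as a skipped exon and held 0.184 and 0.0817 of its pair. The upstream exon of Calu had 0.425 and 0.588 as a skipped exon and 0.501 and 0.639 in the pair. The measures moved in opposite directions only in Rapgef1, Slc35d1, Luc7l2, Zfp280d and Mef2d, and in the same direction in all other exons measured both ways. In Rapgef1, a guanine nucleotide exchange factor, the downstream exon went from 0.715 to 0.906 as a skipped exon and from 0.818 to 0.636 in the pair, and in Slc35d1, a nucleotide sugar transporter, from 0.988 to 0.853 and from 0.302 to 0.494. The upstream exon of Luc7l2, a splicing factor, went from 0.791 to 0.427 and from 0.527 to 0.727, and the downstream exon of Zfp280d from 1.00 to 0.789 and from 0.108 to 0.290. These 4 pairs had 11, 13, 7 and 28 reads in their lowest libraries. In Mef2d, with 131 reads in its lowest library, the upstream exon went from 0.953 to 0.982 as a skipped exon and from 0.738 to 0.661 in the pair.

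**Figure D2:**
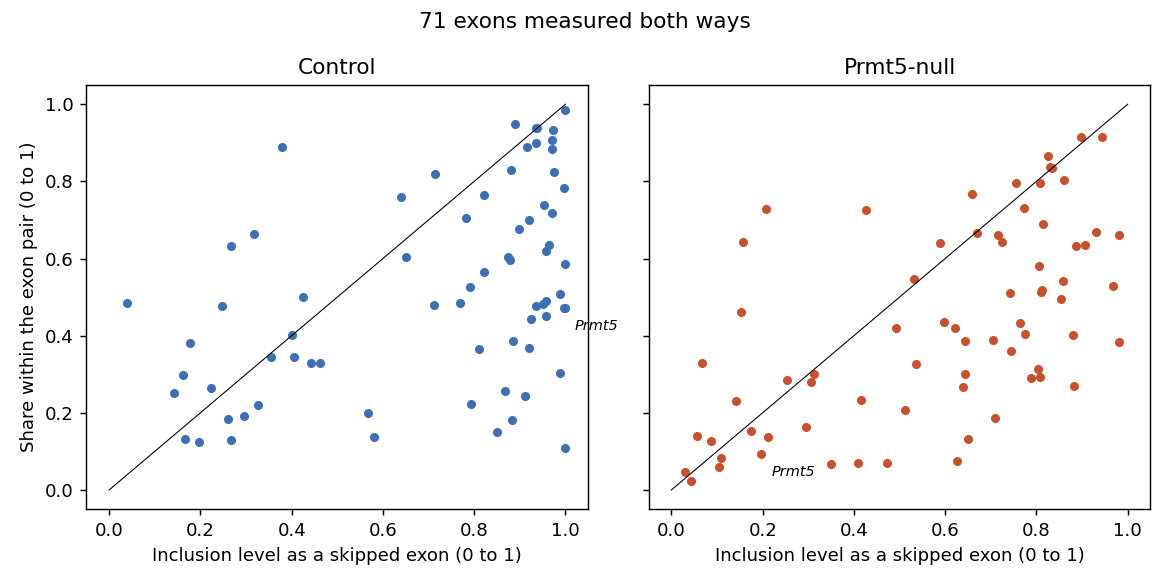
Inclusion level as a skipped exon (x axis, 0 to 1) against the share within the exon pair (y axis, 0 to 1) of the 71 exons measured both ways, as means of 4 control (left) and 4 Prmt5-null values (right). Points below the line hold a smaller share of their pair than their inclusion level, as Prmt5 does in control iGBs with 0.996 and 0.471.

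The size of the difference between the genotypes was at least 0.1 in 258 pairs (73.7%) with junction and target reads and in 323 of 348 (92.8%) with junction reads alone. Of all 1918 deposited events, 90.5% reached it with junction and target reads. With either set of reads 348 of the 350 did. The other 2, Enkd1 and Fam102b, were at 0.0995, which rounds to the threshold. With junction and target reads the pairs just inside were those of Srsf7 and Sdr39u1, both at 0.101, and those just outside were Fam102b at 0.0995 and Fbxo8.

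The largest differences came with the fewest reads. The 30 pairs with a difference of at least 0.3 had a median of 62.5 reads over all 8 libraries and 2.5 in the lowest library. The 41 pairs from 0.2 to 0.3 had medians of 177 and 13, the 187 from 0.1 to 0.2 had 624 and 56, and the 92 pairs under 0.1 had 1220 and 114. The median size was 0.123 over all pairs and 0.111 over the 253 with at least 20 reads in each library. For the skipped exons it was 0.163.

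Apart from Enkd1 and Fam102b, the 92 pairs under 0.1 with junction and target reads reached 0.1 with junction reads alone. The longer exon of the 92 had a median of 193 bases, against 130 bases in the 258 others. Fcer2a, the low affinity IgE receptor of B cells, had 0.0750 and 0.0118, a difference of -0.0633, and -0.294 with junction reads alone. In 13 of 348 pairs (3.74%) the sign of the difference was opposite between the 2 sets of reads.

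**Figure D3:**
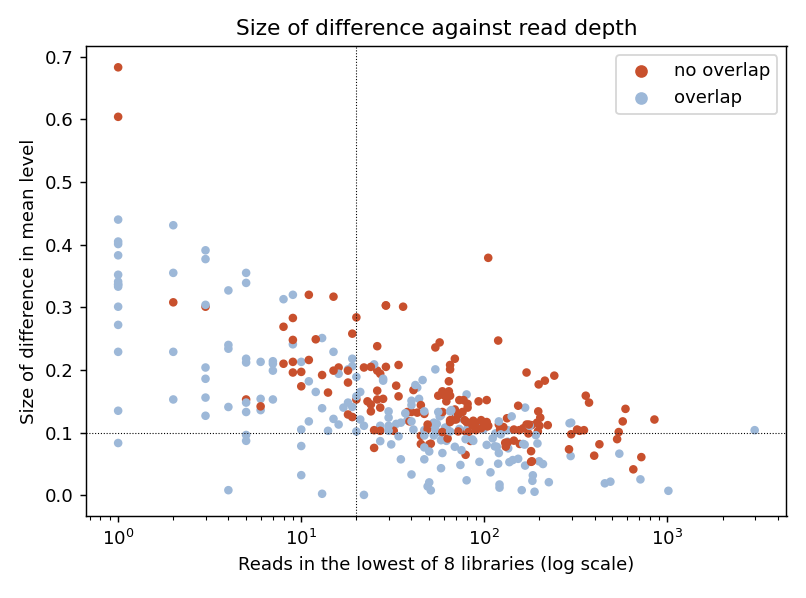
Reads in the lowest of the 8 libraries (x axis, log scale) against the size of the difference in mean level between the genotypes (y axis) for the 350 pairs, with dotted lines at 20 reads and 0.1. Pairs above 0.3 lie mostly left of 20 reads, and red points are the 161 pairs whose 4 control and 4 Prmt5-null levels do not overlap.

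The 4 control and 4 Prmt5-null levels did not overlap in 161 of 350 pairs (46.0%), beside 50.8% of all 1918 deposited events. Since such levels chose the events, nothing is read from these shares. Of the 253 pairs with at least 20 reads in each library, 134 (53%) did not overlap. Among the 19 pairs never annotated together, 8 (42.1%) did not overlap, and among the other 331 pairs 153 (46.2%).

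The upstream exon was higher in Prmt5-null iGBs in 197 of 350 pairs (56.3%, interval 51.0 to 61.4). The longer exon was higher in 190 of the 342 pairs of unequal length (55.6%, interval 50.3 to 60.7), and in 138 of 247 (55.9%, interval 49.6 to 61.9) where each library had at least 20 reads. The exon with the lower control level gained in 215 pairs (61.4%). The same control levels define both that exon and its gain, so nothing is read from this share. The mean level crossed 0.5 in 85 pairs (24.3%), 54 of them toward the upstream exon. With at least 20 reads in each library and no overlap, 31 of 134 pairs (23.1%) crossed it.

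Gaining and losing exons had similar composition. The median length was 120 bases for the exons that gained in Prmt5-null iGBs and 112 bases for those that lost, and the median GC content was 51.1% and 51.0%. The last base before the 5′ splice site was G in 271 gaining (77.4%, interval 72.8 to 81.5) and 269 losing exons (76.9%, interval 72.2 to 81.0). The last 2 bases were AG in 189 (54.0%) and 172 (49.1%) of them, with intervals of 48.8 to 59.1 and 43.9 to 54.4 that overlap.

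**Figure D4:**
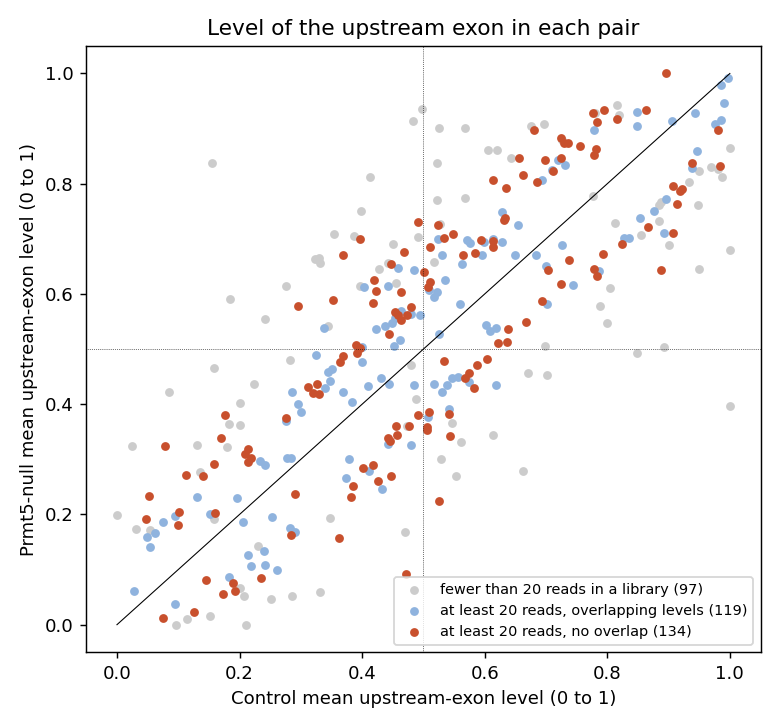
Mean level of the upstream exon in control (x axis, 0 to 1) against Prmt5-null iGBs (y axis, 0 to 1) for each of the 350 pairs, with the line of equal level and dotted lines at 0.5. Red points are the 134 pairs with at least 20 reads in each library and no overlap, and grey points, among which are those farthest from the line, are the 97 pairs with fewer than 20 reads in a library.

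Among pairs with at least 20 reads in each library and no overlap, Prmt5 had the largest difference. Its upstream exon, chr14:54513291-54513454, had levels of 0.507, 0.460, 0.445 and 0.470 in control and 0.065, 0.156, 0 and 0.147 in Prmt5-null iGBs, with 7055 reads over the 8 libraries. The pair carried at least 105 reads in each library, and every Prmt5-null level was far below every control level. This gene carries the floxed alleles in Prmt5-null cells, and a deletion by Cre was not told apart from a change in exon choice. At the gene level Prmt5 had 13090, 11080, 11660 and 11270 normalized counts in control and 1291, 1994, 1060 and 1808 in Prmt5-null libraries, a change of -2.98 on the scale of log2(normalized count + 1) (SE 0.167, limma, adjusted p = 6.14e-06, n = 4 mice each), which also checks the labels.

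Tmem234 had a pair that no annotated transcript joins, with exons of 219 and 92 bases on chromosome 4. Its upstream exon had levels of 0.365, 0.308, 0.386 and 0.413 in control and 0.716, 0.586, 0.583 and 0.800 in Prmt5-null iGBs. The mean crossed 0.5, on at least 29 reads in each library. With junction reads alone the means were 0.219 and 0.442, so that the shorter exon was the major exon in both genotypes. Measured as a skipped exon, the 92-base exon was included at 0.266 in control and 0.0672 in Prmt5-null iGBs.

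Tspan32, a tetraspanin of blood cells, had exons of 87 and 84 bases on chromosome 7. Levels of its upstream exon were 0.428, 0.367, 0.476 and 0.314 in control and 0.785, 0.619, 0.672 and 0.721 in Prmt5-null iGBs. The major exon of the pair changed here too, and an exchange of these exons would keep the frame. At least 1 annotated transcript held both exons, however. Measured as a skipped exon, the 84-base exon was included at 0.650 in control and 0.312 in Prmt5-null iGBs. The gene itself was called lower in Prmt5-null iGBs, with a log2 change of -0.81 (SE 0.119, limma, adjusted p = 0.00118).

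Wdr90, a WD repeat protein of centrioles, moved the other way. Its 122-base upstream exon had 0.468, 0.536, 0.536 and 0.565 in control and 0.25, 0.136, 0.366 and 0.149 in Prmt5-null iGBs, with the 160-base exon becoming the major exon. Jmjd7, an oxygenase of the JmjC family, had 0.428, 0.306, 0.225 and 0.222 in control and 0.554, 0.533, 0.544 and 0.685 in Prmt5-null iGBs for its 96-base upstream exon, on at least 20 reads in each library. The downstream exon of Jmjd7, at 120031575-120031651, was included at 0.781 in control and 0.492 in Prmt5-null iGBs as a skipped exon. A nearby exon of Gm28042, at 120031307-120031402, fell from 0.958 to 0.804 as a skipped exon. It held 0.489 in control and 0.314 in Prmt5-null iGBs of its own pair. Whether it is the 96-base exon of Jmjd7 was not tested, nor whether that exon itself was included more.

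Tia1, an RNA-binding protein that favors the use of weak 5′ splice sites, had an 815-base upstream exon without coding sequence on chromosome 6 and a 109-base coding exon downstream. The level of the 815-base exon was 0.073, 0.070, 0.080 and 0.090 in control and 0.251, 0.422, 0.275 and 0.352 in Prmt5-null iGBs. It stayed the minor exon in all libraries, and the lowest Prmt5-null level was above the highest control level.

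Fdx1l, a mitochondrial ferredoxin, lost its 55-base upstream exon in part, with levels of 0.850, 0.864, 0.940 and 0.898 in control and 0.541, 0.614, 0.763 and 0.656 in Prmt5-null iGBs. The same exon had 0.915 in control and 0.725 in Prmt5-null iGBs as a skipped exon. Fam98c had 0.410, 0.520, 0.573 and 0.462 in control and 0.763, 0.764, 0.705 and 0.686 in Prmt5-null iGBs for its 78-base upstream exon. The partner exon of 117 bases was included at 0.988 in control and 0.883 in Prmt5-null iGBs as a skipped exon. An exchange of these lengths would keep the frame, but the 117-base exon was seldom left out in either genotype.

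The 4 largest differences of all rows rested on few reads. Rp2, a regulator of small GTPases in cilia, went from a mean level of 0.155 to 0.838 on 29 reads over all libraries, and Wdfy3, an adaptor of selective autophagy, from 1.00 to 0.396 on 22. Alg13, of N-glycan synthesis, went from 0.497 to 0.936 on 23 reads with overlapping levels, and Fbrsl1 from 0.483 to 0.914 on 39. Each had 1 or 2 reads in its lowest library, so the level of a single library could hardly take values other than 0, 1 or a few between.

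**Figure D5:**
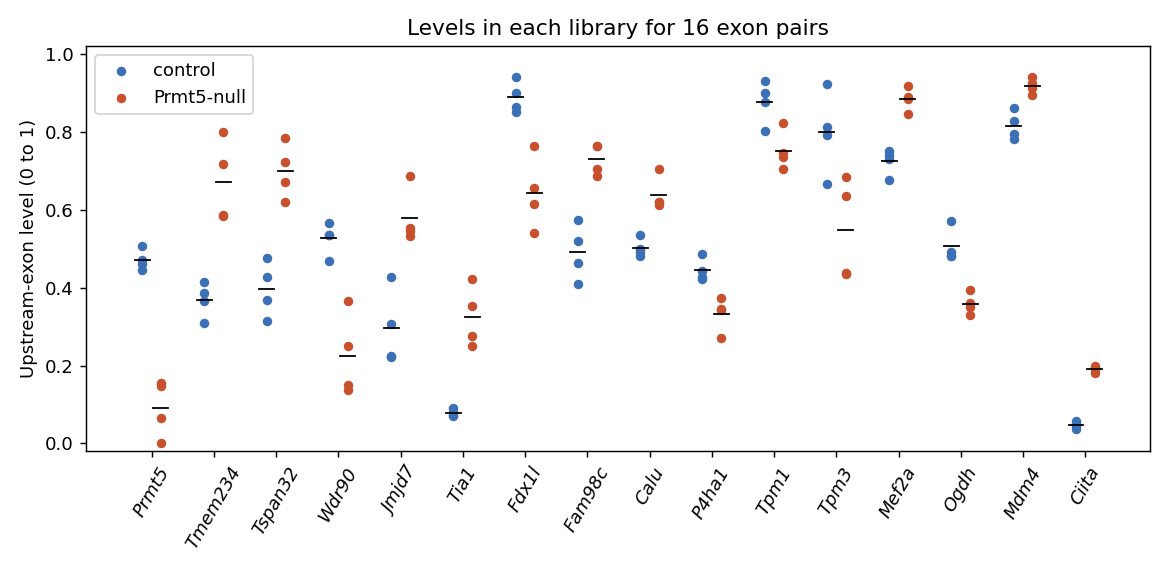
Level of the upstream exon (y axis, 0 to 1) in each of 4 control (blue) and 4 Prmt5-null libraries (red) for 16 pairs, with bars at the means. The first 8 are the largest differences with at least 20 reads in each library and no overlap, and Tpm1 and Tpm3 are those in which the genotypes overlap.

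Genes known for mutually exclusive exons were examined as a list of 40, of which 8 had a pair in the table. This list and those below were written with the names of the genes that have a pair already known. How many members of a list had a pair is therefore not a result, and of all 16250 genes tested 350 had one. The levels did not overlap in 6 of these 8, beside 46.0% of all 350 pairs, and 5 of the 8 were never annotated together. The upstream exon was higher in Prmt5-null iGBs in 2 of 8, beside 56.3% of all pairs, and lower in 6, with a median size of 0.123, the same as over all 350 pairs.

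Mef2a, a transcription factor, had levels of 0.675, 0.751, 0.731 and 0.740 in control and 0.917, 0.888, 0.884 and 0.845 in Prmt5-null iGBs for its upstream exon, on at least 358 reads in each library. The groups did not overlap. Its relative Mef2d had a lower upstream exon instead, with 0.730 to 0.750 in control and 0.643 to 0.676 in Prmt5-null iGBs, but its exons of 211 and 57 bases were joined in 4 transcripts. The Mef2d difference was -0.120 with junction reads alone instead of -0.0777.

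Tpm1 had 0.899, 0.876, 0.802 and 0.929 in control and 0.734, 0.822, 0.704 and 0.744 in Prmt5-null iGBs for the upstream exon printed above. The means fell from 0.877 to 0.751, but the groups overlapped in 1 Prmt5-null value. P4ha1 had 0.443, 0.487, 0.427 and 0.423 against 0.374, 0.343, 0.344 and 0.271, without overlap. Calu, which is not of this list but has an equal-length pair, had 0.535, 0.480, 0.490 and 0.499 against 0.620, 0.620, 0.703 and 0.612, also without overlap. Both exons of Calu had nearly equal shares in control (mean 0.501), and the upstream exon was the major exon in Prmt5-null iGBs (mean 0.639).

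Tpm1, P4ha1 and Calu are also used by fibroblasts, whose summed markers were at 3340 to 5960 normalized counts in control and 5340 to 9380 in Prmt5-null libraries. The part of feeder cell RNA in these pairs was not tested. The gene levels were not called for any of the 3, with log2 changes of 0.03 for Tpm1, 0.12 for P4ha1 and -0.27 for Calu (SE 0.0724, 0.219 and 0.0673, limma, adjusted p = 0.811, 0.763 and 0.0205), the last below 1.5-fold.

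Myo9b, an unconventional myosin, had 0.547 to 0.631 in control and 0.435 to 0.502 in Prmt5-null iGBs without overlap. Mff, a factor of mitochondrial fission, had 0.803 to 0.978 in control and 1.00 in each Prmt5-null library, on at least 25 reads. Its downstream exon had only 1, 3, 5 and 6 reads in control and 0 in each Prmt5-null library. Camk2g, a calmodulin-dependent kinase, went from a mean of 0.553 to 0.270, with 9 reads in its lowest library. The remaining equal-length pairs were those of Nlrc5, an activator of MHC class I genes, with means of 0.574 and 0.440, and of Galnt7 with 0.196 and 0.229, both with overlapping levels, beside Tpm3, Flot2 and Hnrnpa1.

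Tpm3 went from 0.667, 0.792, 0.813 and 0.923 in control to 0.435, 0.636, 0.684 and 0.438 in Prmt5-null iGBs, with 13 reads in its lowest library and overlapping groups. Ogdh, an enzyme activated by calcium, had 0.480, 0.481, 0.492 and 0.571 in control and 0.394, 0.361, 0.349 and 0.329 in Prmt5-null iGBs. These did not overlap, and at least 373 reads were counted in each library. Dlg1, a scaffold protein with exons of 100 and 34 bases that no transcript joins, had 0.757 to 0.816 in control and 0.872 to 0.949 in Prmt5-null iGBs.

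Of 67 splicing and RNA processing factors, 15 had a pair, with no overlap in 7 and the upstream exon higher in 10, beside 46.0% and 56.3% of all 350 pairs, and a median size of 0.116. Srsf7, an SR protein, had 0.374 to 0.403 in control and 0.474 to 0.504 in Prmt5-null iGBs for exons of 54 and 36 bases that lie together in 6 transcripts, and at least 542 reads in each library. Rbm39, an SR-like splicing factor, had 0.139 to 0.176 in control and 0.181 to 0.229 in Prmt5-null iGBs, and Cpsf7, of the 3′ end processing machinery, 0.412 to 0.522 and 0.309 to 0.402. Srpk1, the kinase of SR proteins, had means of 0.234 and 0.297, with overlapping levels. With junction reads alone the difference was 0.113 instead of 0.0415 for Rbm39 and 0.102 instead of 0.0627 for Srpk1. Hnrnpa1, with exons of 93 bases each, had means of 0.2 and 0.0663 on 85 reads, and its groups overlapped.

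Of 22 regulators of the cell cycle and p53, 16 had a pair, with no overlap in 7 and the upstream exon higher in 12, beside 46.0% and 56.3% of all 350 pairs, and a median size of 0.123. Mdm4, an inhibitor of p53, had 0.794, 0.781, 0.827 and 0.860 in control and 0.913, 0.940, 0.895 and 0.925 in Prmt5-null iGBs for its 56-base exon against 1 of 39 bases. The 39-base exon was the lesser exon throughout, and became rarer without overlap, on at least 331 reads in each library. Kif23, a motor of cytokinesis, had 0.294 to 0.367 in control and 0.380 to 0.445 in Prmt5-null iGBs, and Pias1, a SUMO ligase, 0.444 to 0.596 and 0.608 to 0.638, both without overlap.

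Of 45 B cell and immune signaling genes, 27 had a pair, with no overlap in 13 and the upstream exon higher in 13, beside 46.0% and 56.3% of all 350 pairs, and a median size of 0.113. Il2rg, the common chain of several cytokine receptors, had 0.692 to 0.716 in control and 0.627 to 0.678 in Prmt5-null iGBs, on at least 720 reads in each library. Ptprc, which encodes CD45 and has variable exons that mark lymphocyte states, had 0.153 to 0.264 and 0.277 to 0.393 for exons of 147 and 72 bases. Siglecg, an inhibitory B cell lectin, had means of 0.863 and 0.933 without overlap. The adaptors Lax1 and Lat2 moved in opposite directions, with means of 0.364 and 0.476 and of 0.189 and 0.0757. With junction reads alone the difference was -0.135 instead of -0.061 for Il2rg and 0.163 instead of 0.0705 for Siglecg.

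Ciita, the activator of MHC class II genes, had 0.049, 0.037, 0.045 and 0.058 in control and 0.180, 0.198, 0.191 and 0.193 in Prmt5-null iGBs for exons of 81 and 45 bases on chromosome 16. The groups were well apart, on at least 153 reads in each library. Gas5, a noncoding RNA that hosts snoRNAs, had 0.638 to 0.697 in control and 0.832 to 0.873 in Prmt5-null iGBs for exons of 33 and 41 bases.

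Of 53 chromatin and transcription regulators, 27 had a pair, with no overlap in 11 and the upstream exon higher in 17, beside 46.0% and 56.3% of all 350 pairs, and a median size of 0.101. Cdyl, a chromodomain corepressor, had 0.671 to 0.712 in control and 0.778 to 0.856 in Prmt5-null iGBs, and Gatad2a 0.591 to 0.683 and 0.707 to 0.773. Phc3, of a Polycomb complex, had 0.180 to 0.245 and 0.280 to 0.329. Uhrf2, a ubiquitin ligase, had means of 0.628 and 0.694, with overlapping levels. With junction reads alone the difference was only 0.052 instead of 0.118 for Cdyl, but 0.164 instead of 0.104 for Gatad2a, 0.162 instead of 0.0843 for Phc3 and 0.105 instead of 0.0665 for Uhrf2.

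Of 49 DNA repair genes, 11 had a pair, with no overlap in 3 and the upstream exon higher in 9, beside 46.0% and 56.3% of all 350 pairs, and a median size of 0.121. Neil1, a DNA glycosylase, had 0.696 to 0.745 in control and 0.804 to 0.879 in Prmt5-null iGBs, with 14713 reads over all libraries. Pold1, the catalytic subunit of a replicative polymerase, had means of 0.284 and 0.303, with overlapping levels, but 0.371 and 0.248 with junction reads alone, which turned the direction.

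Of 23 centrosome and cilium genes, 20 had a pair, with no overlap in 9 and the upstream exon higher in 11, beside 46.0% and 56.3% of all 350 pairs, and a median size of 0.102. The 20 of 23 reflects how the list was written and is not a share of all such genes. Sfi1, a centrin-binding protein, had 0.345 to 0.490 in control and 0.207 to 0.308 in Prmt5-null iGBs, and Tbccd1 0.268 to 0.305 and 0.188 to 0.260. C2cd3, of the distal centriole, had 0.271 to 0.348 and 0.367 to 0.473. Cep170 and Cep295 overlapped between the genotypes. With junction reads alone the difference was -0.146 instead of -0.0543 for Tbccd1 and -0.107 instead of -0.0505 for Cep295. The median sizes of all 7 lists lay from 0.101 to 0.123, beside 0.123 over all pairs.

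The genes with a pair were seldom called at the gene level. With limma, 19 of 350 passed (5.43%), 8 higher and 11 lower. Of all 16250 genes tested 6.48% were called, 3.49% higher and 2.99% lower. The splicing table came from the same contrast, and nothing is read from these shares. Prmt5 fell most, followed by Srpk3, a kinase of SR proteins, with a log2 change of -1.09 (SE 0.258, limma, adjusted p = 0.0155) and Phyhd1 with -0.93 (SE 0.161, limma, adjusted p = 0.00314). The largest rises were in Slc23a1, an ascorbate transporter, with 1.13 (SE 0.212, limma, adjusted p = 0.0048), Lrrc28 with 1.04 (SE 0.101, limma, adjusted p = 0.000123) and Ift81, of intraflagellar transport, with 0.86 (SE 0.180, limma, adjusted p = 0.00828).

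In these genes the pair and the gene level were separate measures. Srpk3 had mean levels of 0.282 in control and 0.481 in Prmt5-null iGBs without overlap, Lrrc28 of 0.530 and 0.423 with overlap. Ift81, with 0.893 and 0.503, and Phyhd1, with 0.526 and 0.902, had 3 reads in their lowest library, and Slc23a1 had 1.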

How the data were processed

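RNA-seq libraries from 4 Prmt5-null and 4 control iGB cultures were used. The authors aligned reads with STAR and counted them on genes with featureCounts, per the submitters' processing notes, and deposited a normalized signal, in which counts were scaled by DESeq2 size factors. Whole reads were recovered for each of these values (tolerance 0.01) with a factor per library. Splicing events were called by the authors with rMATS, from untrimmed reads and an Ensembl GRCm38 annotation. They deposited inclusion levels as fractions and the read counts behind them, as lists of 4 per genotype. Their p-values, FDR values and level differences were not used, and all differences were computed from the lists.

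The form lengths in the table were the exon length plus 124 bases, which showed that the level refers to the exon first in the transcript. Deposited levels were recovered from the read counts within 0.0005. Exons were matched to GENCODE M21 (GRCm38), with all 350 genes found. Shares have 95% Wilson intervals. Genes with a mean of at least 10 normalized counts were compared with limma 3.58.1 (R 4.3.3) after a log2 transform with a pseudocount of 1. A call needed a Benjamini-Hochberg adjusted p under 0.05 together with a 1.5-fold change or more. limma was tested on simulated data with 200 changed genes. SciPy 1.17.1, pandas 2.3.3 and matplotlib 3.10.9 were used.

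The pairs and gene lists were chosen with earlier results of these data known. Named events are the 8 largest with at least 20 reads in each library and no overlap, the 4 largest of all, equal-length pairs, genes the study names, at most 6 of each list by reads, and those at the threshold. Tpm3, Ogdh, Ciita, Camk2g, Gas5, Dlg1, Rapgef1, Slc35d1, Luc7l2, Zfp280d, Usp15, Flot2, Tacc2, Ivns1abp, Gm28042 and the further members of the 19 pairs never annotated together lie outside the rule. Their choice followed a look at their values. Some genes that the rule names are not reported here. The libraries of each genotype came from 4 mice, and p-values measure the spread between them.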

Additional observations from a re-analysis of the deposited data

Results flagged for a closer look

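In 14 of 152 groups of 4 values examined among the named events and genes, 1 value stood apart from the other 3. The cutoff was meant to pick about 1 in 20 groups by chance. That rate was not checked for shares that rest on few reads, and nothing is read from the number of groups. In Prmt5-null iGBs these were Alg13 at 0.746 with the others at 1.00, Calu at 0.703 with the next at 0.620, Fbrsl1 at 0.658 with the others at 1.00, Il2rg at 0.678 with the next at 0.635, Jmjd7 at 0.685 with the next at 0.554, Myo9b at 0.435 with the next at 0.493, Rp2 at 0.350 with the others at 1.00 and Usp15 at 0.914 with the next at 0.855. In control iGBs they were Camk2g at 0.779 with the next at 0.501, Cep170 at 0.732 with the next at 0.585, Fbrsl1 at 0 with the next at 0.616, Gas5 at 0.697 with the next at 0.646, Ogdh at 0.571 with the next at 0.492 and Zfp280d at 0.756 with the next at 0.921. The lists do not name their libraries, so it is not known whether any of these values belong to the same mouse. In Alg13, Fbrsl1 and Rp2 the other Prmt5-null values were tied at 1.00, where any gap is the whole range. Many events were also named for their large differences, so the number of groups is not set against chance.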

How the results depend on the processing

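No paired analysis was possible because the replicate numbers are those of different mice in the 2 genotypes. The 350 deposited pairs were 348 at a difference of 0.1 by these level lists, 100 at 0.2 and 61 at 0.25, and from 312 to 328 when 1 list position was left out. The share of pairs with a higher upstream exon was 63.5% with at least 100 reads in each library and 63.9% at a difference of at least 0.25, against 56.3%. Without a fold threshold limma called 2249 of all genes and 67 genes with a pair, against 1053 and 19. Leaving out 1 library gave 792 to 1170 and 17 to 23, and edgeR on the recovered reads gave 1091 and 18. The other settings of these results stayed within the interval or within 1.5 times.

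Among 71 named events, junction reads alone moved 15 differences by more than the spread between libraries and turned Pold1 to -0.123. Leaving out list positions gave -0.00433 to 0.061 for Galnt7. The causes were not tested. An adjusted p of 0.01 on the splicing events was not run, because the authors' p-values were not used. Depth limits the 60 pairs with under 10 reads in a library.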
